A study of Mus musculus with 11 samples.

Results

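Immediate early genes are transcribed within minutes of a stimulus, without new protein synthesis. The 10 studied here are Fos, Fosb, Jun, Junb, Egr1, Egr2, Nr4a1, Nr4a3, Arc and Dusp6, taken as every probe that the platform annotation pairs with exactly 1 of these symbols. They had 11 probes among the 34999 on the array, and 18048 genes had a probe with a single symbol. All 10 members were measured, each by 1 probe except Nr4a3, which had 2.

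The study set the hypothalamus, the seat of appetite circuits, and the cerebellum of wild-type female SV/129 mice aged 10 weeks after 16 hours without food against those of mice that kept their chow. Both groups had water, the fast began with the dark phase and tissue was taken the next morning. RNA of 6 mice was pooled for each region and feeding state, which gave 4 pools, hybridised to CodeLink whole genome arrays as 3 arrays of the fed hypothalamus, 3 of the fasted hypothalamus, 3 of the fed cerebellum and 2 of the fasted cerebellum. Arrays of a pool repeat the same RNA, so their spread holds no difference between mice, and every test below compares pools and not feeding states. A pool of whole tissue cannot tell fewer cells of a type apart from less RNA per cell.

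In neurons, calcium entry and growth factor receptors activate the kinase ERK and the factor CREB, which with serum response factor switch these genes on, and the amounts of their transcripts are widely read as a trace of recent neuronal activity. Fos, Fosb, Jun and Junb encode the subunits that pair to form the AP-1 factor, Egr1 and Egr2 zinc finger factors, and Nr4a1 and Nr4a3 orphan nuclear receptors. Arc encodes a synaptic protein that promotes removal of AMPA receptors, and Dusp6 a phosphatase that switches ERK off and is itself induced by ERK. Induction of Fos in the hypothalamus is a common marker of neurons that respond to a fast.

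The promoters of 4 members stand for the patterns found: Fos, which passed no test after adjustment in either region, Jun, lower in the fasted hypothalamus, Junb, higher in the fasted cerebellum, and Dusp6, lower in both. Each sequence is the 250 bases before the RefSeq start of the gene in GRCm38.p6, 5′ to 3′ on the strand of the gene, with motif matches in capitals. The windows are chr12:85473640-85473889 on the plus strand for Fos, chr4:95052223-95052472 on the minus strand for Jun, chr8:84978749-84978998 on the minus strand for Junb and chr10:99262981-99263230 on the plus strand for Dusp6.
Fos: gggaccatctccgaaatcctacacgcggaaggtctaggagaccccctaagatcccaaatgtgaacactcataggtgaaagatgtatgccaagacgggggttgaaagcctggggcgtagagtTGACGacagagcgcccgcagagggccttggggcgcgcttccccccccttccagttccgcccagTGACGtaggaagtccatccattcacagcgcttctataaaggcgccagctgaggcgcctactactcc
Jun: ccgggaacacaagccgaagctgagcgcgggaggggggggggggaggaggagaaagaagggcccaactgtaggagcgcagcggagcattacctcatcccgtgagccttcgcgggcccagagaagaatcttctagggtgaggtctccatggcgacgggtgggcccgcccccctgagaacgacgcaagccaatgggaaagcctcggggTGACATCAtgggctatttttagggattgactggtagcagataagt
Junb: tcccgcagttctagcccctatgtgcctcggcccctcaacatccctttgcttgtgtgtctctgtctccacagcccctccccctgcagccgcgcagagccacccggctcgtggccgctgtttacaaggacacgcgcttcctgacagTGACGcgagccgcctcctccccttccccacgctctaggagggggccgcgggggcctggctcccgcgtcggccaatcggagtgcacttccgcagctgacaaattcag
Dusp6: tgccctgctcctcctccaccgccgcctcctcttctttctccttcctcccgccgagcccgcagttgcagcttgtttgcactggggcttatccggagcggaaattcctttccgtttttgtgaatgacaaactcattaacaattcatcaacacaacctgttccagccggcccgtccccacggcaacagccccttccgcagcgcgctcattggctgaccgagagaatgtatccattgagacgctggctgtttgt

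The capitals mark TGACG, the core of the CREB binding site, and in Jun TGACATCA, a variant AP-1 site. TGACG was found at -129 to -125 and at -66 to -62 in Fos and at -106 to -102 in Junb, counted back from the start, and TGACATCA at -45 to -38 in Jun. Both strands were searched. The Dusp6 window held no match to any motif searched. TGACG occurred in at least 1 window of 6 of the 8 members with an entry, which leave out Arc and Egr1, and in 17.8% of all 32851 windows of this length. Member counts here are by gene, over 12 windows, while the percentages are by window, so the measures are not alike. TGACATCA occurred in 2.93% of all windows. The full CREB site TGACGTCA (1.55% of windows, and holding TGACG within it) and the AP-1 site TGANTCA (6.75%) were in 0 of the 8 members, CCGGAA, a core of Ets factor sites, in 2 (12% of windows), and the CArG box of serum response factor in 1, Egr2 (1.47%). A match describes the letters of the window and is no evidence of binding, and both the members with and those without TGACG include probes that passed a test.

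The deposited values are ratios of each probe to the median of the 3 fed arrays of the same region. For each probe 1 fed array of each region is therefore at 1 before scaling, and which array this is differs between probes. Such ratios hold no signal level. No member can be ranked against another or between regions, a probe near background cannot be recognised, and the tissue labels cannot be checked by the level of marker genes. Each ratio below was divided by the median of its array. A change is the log2 value of the fasted pool less that of the fed pool, with its SE from a limma fit of all 11 arrays, and a probe is called at an adjusted p under 0.05 over all 34999 probes. Intervals are the 95% intervals of that fit.

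In the fasted hypothalamus, 4 of 11 probes were called, all lower: Jun, Nr4a3 (probe 231066), Arc and Dusp6. That is 36.4% of the probes, against 14.2% of all probes called in this comparison with 6.34% called higher and 7.89% called lower. The members were chosen with earlier results of these data known, so their shares of calls, here and below, are a description only. At an unadjusted p under 0.05, limma gave 4 lower and 1 higher, Fos. The 4 changes lay between -0.33 and -0.25 log2, or 1.19-fold to 1.26-fold fed over fasted. In the fasted cerebellum 4 of 11 were also called, against 20.9% of all probes (9.66% higher and 11.2% lower), with Dusp6, Egr1 and the same Nr4a3 probe lower by 0.69 to 0.86 log2 and Junb higher by 0.45. Fos itself, Fosb, Egr2, Nr4a1 and the other Nr4a3 probe were called in neither region. The median change over the 11 probes was 0.03 in hypothalamus and -0.06 in cerebellum, against 0.00 and 0.01 over all probes.

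**Figure D1:**
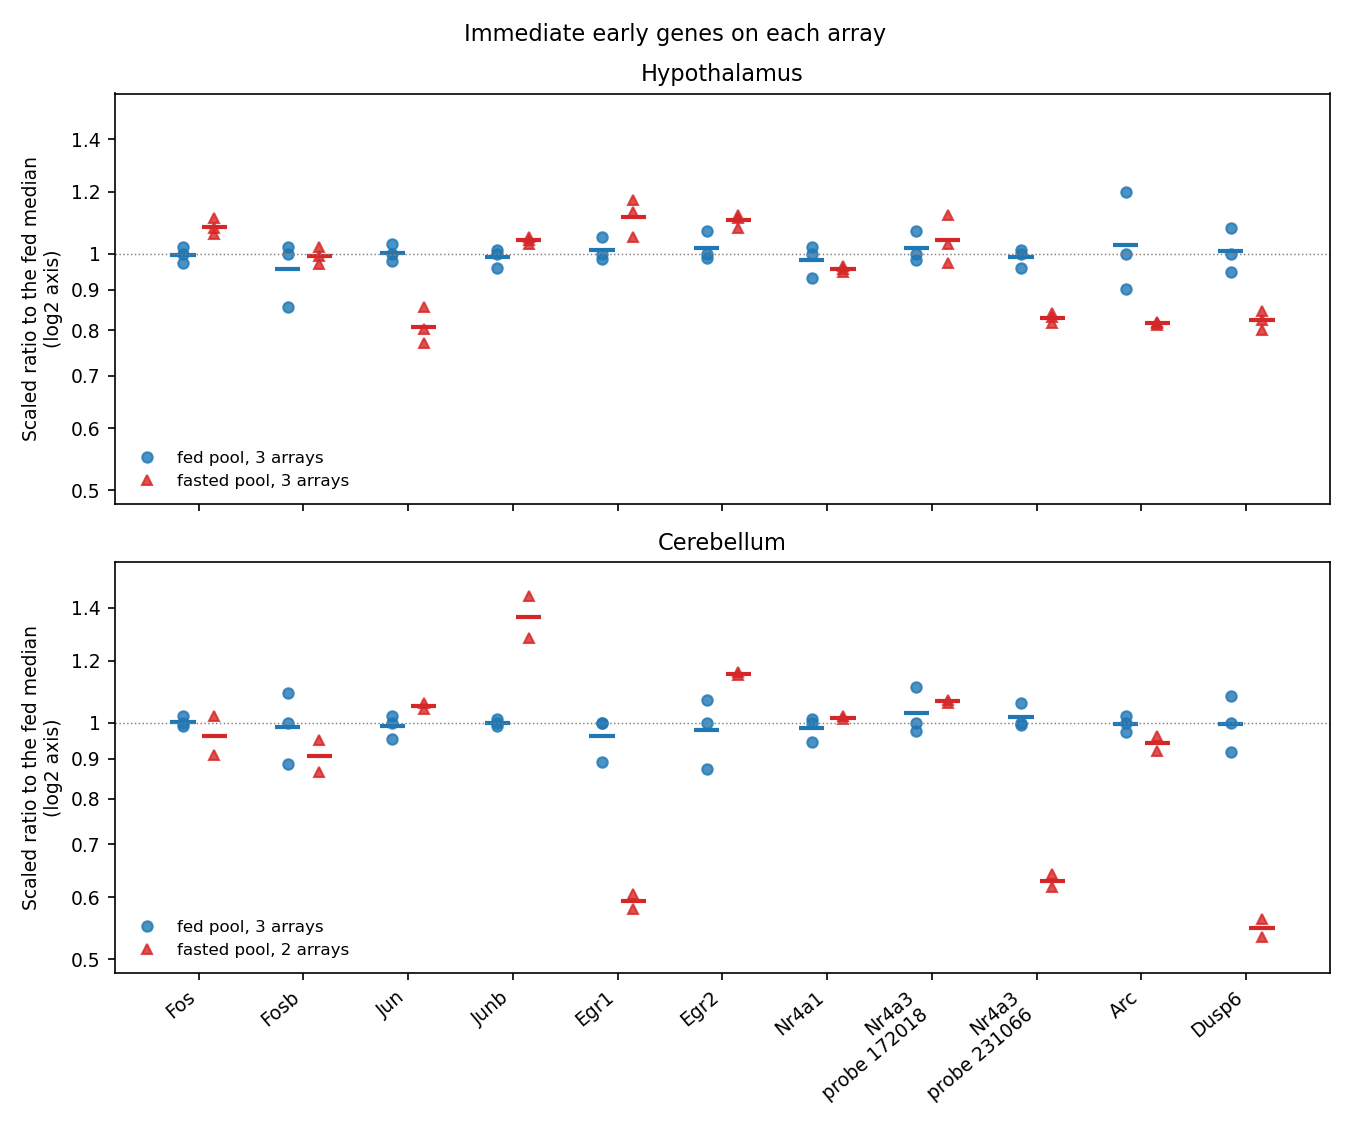
Scaled ratio to the fed median (vertical log2 axis) of the 11 probes on every array, with hypothalamus above and cerebellum below, circles for fed and triangles for fasted arrays and bars for the mean of the log2 values. Jun, Nr4a3 probe 231066, Arc and Dusp6 lie under the fed arrays in the fasted hypothalamus, and Egr1, Nr4a3 probe 231066 and Dusp6 lie under and Junb above them in the fasted cerebellum.

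Of the AP-1 subunits, Fos had scaled ratios of 1.02, 1 and 0.973 on the fed hypothalamus arrays and 1.11, 1.08 and 1.06 on the fasted ones. The fasted arrays were all above the fed ones, but the change of 0.12 ± 0.05 log2 (95% interval 0.01 to 0.23) was not called (adjusted p = 0.134, limma). In the cerebellum the ratios of Fos were 0.99, 1.02 and 1 when fed and 0.909 and 1.02 when fasted, so the pools overlapped, with a change of -0.06 (-0.18 to 0.07). The upper end of the 95% interval for Fos in the hypothalamus, 0.23 log2, holds for this probe and these pools only. It sets no limit on the change of the transcript, since a probe near background cannot be recognised. Fosb, a paralog of Fos whose truncated product builds up with repeated stimulation, spread from 0.857 to 1.02 on the fed and from 0.972 to 1.02 on the fasted hypothalamus arrays, and from 0.886 to 1.09 against 0.866 and 0.951 in the cerebellum. Its pools overlapped in both regions, with changes of 0.06 (-0.15 to 0.26) and -0.12 (-0.35 to 0.11), and neither was called.

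Jun, which pairs with Fos or with itself in AP-1, was at 1.03, 1 and 0.979 in the fed and at 0.855, 0.803 and 0.769 in the fasted hypothalamus. The pools did not overlap, and Jun fell by 0.31 ± 0.05 log2 (fed over fasted 1.24-fold, 3 of 3 fasted arrays lower, adjusted p = 0.00693, limma). In the cerebellum Jun was at 1.02, 1 and 0.954 when fed and at 1.06 and 1.04 when fasted, a change of 0.09 (-0.04 to 0.21) that was not called. The call in hypothalamus was kept without any 1 of the 11 arrays. Junb, a paralog that is a weaker activator than Jun and can oppose it, showed the other arrangement. It stood at 1, 1.01 and 0.96 in the fed and at 1.04, 1.03 and 1.05 in the fasted hypothalamus, a difference of 0.07 (-0.04 to 0.18) that was not called although the arrays did not overlap. In the cerebellum the fed arrays were at 1, 1.01 and 0.99 and the fasted ones at 1.28 and 1.45, apart from each other by more than the fed arrays. Junb rose there by 0.45 ± 0.06 log2, or 1.36-fold (adjusted p = 0.000648, limma), and kept the call without any 1 array.

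Egr1, a zinc finger factor of activity-dependent plasticity, differed between the regions. Its ratios were 0.984, 1.05 and 1 in the fed and 1.17, 1.05 and 1.13 in the fasted hypothalamus. The pools overlapped there, and the change of 0.14 ± 0.06 (0.00 to 0.28) was not called (adjusted p = 0.162, limma). In the cerebellum Egr1 was at 1, 0.892 and 1 when fed and at 0.606 and 0.579 when fasted. No fasted array reached the fed range, and Egr1 fell by 0.70 ± 0.07 log2 (fed over fasted 1.63-fold, adjusted p = 0.00018, limma), also without any 1 array. Egr2, best known for its part in myelination and hindbrain patterning, was at 1, 1.07 and 0.987 against 1.11, 1.12 and 1.08 in the hypothalamus and at 1, 1.07 and 0.873 against 1.16 and 1.15 in the cerebellum. Its fasted arrays lay above the fed ones in both regions, by 0.12 (-0.04 to 0.28) and 0.24 (0.06 to 0.42), and neither change was called. Without fed replicate 2 of the cerebellum, Egr2 was called there at 0.30 (adjusted p = 0.0255, limma).

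Among the nuclear receptors, Nr4a1 was at 1.02, 1 and 0.932 in the fed and at 0.956, 0.949 and 0.966 in the fasted hypothalamus, and at 1.01, 1 and 0.945 against 1.02 and 1.01 in the cerebellum. The pools overlapped in both regions, and the changes of -0.04 (-0.14 to 0.07) and 0.04 (-0.07 to 0.16) were not called. The 2 probes of Nr4a3 disagreed. Probe 172018, annotated with the RefSeq transcript of the gene, ranged from 0.982 to 1.07 on fed and from 0.975 to 1.12 on fasted hypothalamus arrays and from 0.977 to 1.11 against 1.06 and 1.07 in the cerebellum, with changes of 0.03 (-0.12 to 0.18) and 0.05 (-0.12 to 0.22). Probe 231066, annotated with other GenBank entries, was at 1.01, 0.959 and 1 in the fed and at 0.832, 0.817 and 0.84 in the fasted hypothalamus, and at 0.994, 1.06 and 1 against 0.617 and 0.642 in the cerebellum. On this probe no fasted array reached the fed range in either region, and it fell by 0.25 ± 0.04 log2 (adjusted p = 0.00773, limma) and by 0.69 ± 0.05 log2 (adjusted p = 2.59e-05, limma), without any 1 array too. Which part of the gene each probe reads is not given in the sources used here, so its direction as a gene is not settled.

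Arc had ratios of 1.2, 1 and 0.902 on the fed and 0.812, 0.816 and 0.82 on the fasted hypothalamus arrays. The 3 fasted arrays were close together under a wide fed spread (SD 0.21 log2), and Arc fell by 0.33 ± 0.09 (-0.53 to -0.13, adjusted p = 0.0396, limma). Of the member calls, this one was kept under the fewest alternatives (8 of 22). It was lost when any 1 of the 11 arrays other than fed hypothalamus replicate 3 was left out, with an adjusted p from 0.0503 to 0.1, and without fed replicate 1 of the hypothalamus the change was -0.22. In the cerebellum Arc was at 1.02, 0.972 and 1 when fed and at 0.962 and 0.921 when fasted, a change of -0.08 (-0.31 to 0.14) that was not called.

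Dusp6 was the member called in both regions by its only probe. It was at 1, 1.08 and 0.948 in the fed and at 0.801, 0.846 and 0.823 in the fasted hypothalamus, and at 1, 1.08 and 0.919 in the fed and 0.534 and 0.563 in the fasted cerebellum. The fasted arrays lay under the fed ones in both. Dusp6 fell by 0.29 ± 0.07 log2 in hypothalamus (fed over fasted 1.22-fold, adjusted p = 0.028, limma) and by 0.86 ± 0.08 in cerebellum (1.82-fold, adjusted p = 0.000113, limma). The call in hypothalamus was lost without fed replicate 1 or 2 or fasted replicate 1, 2 or 3 of that region (adjusted p from 0.0616 to 0.089), while that in cerebellum was kept without any 1 array. Over the array, 1.61% of probes were called lower in both regions, and 2 of the 11 member probes were, Dusp6 and Nr4a3 probe 231066. The 2 regions were dissected from the same animals, so calls in both are not independent.

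**Figure D2:**
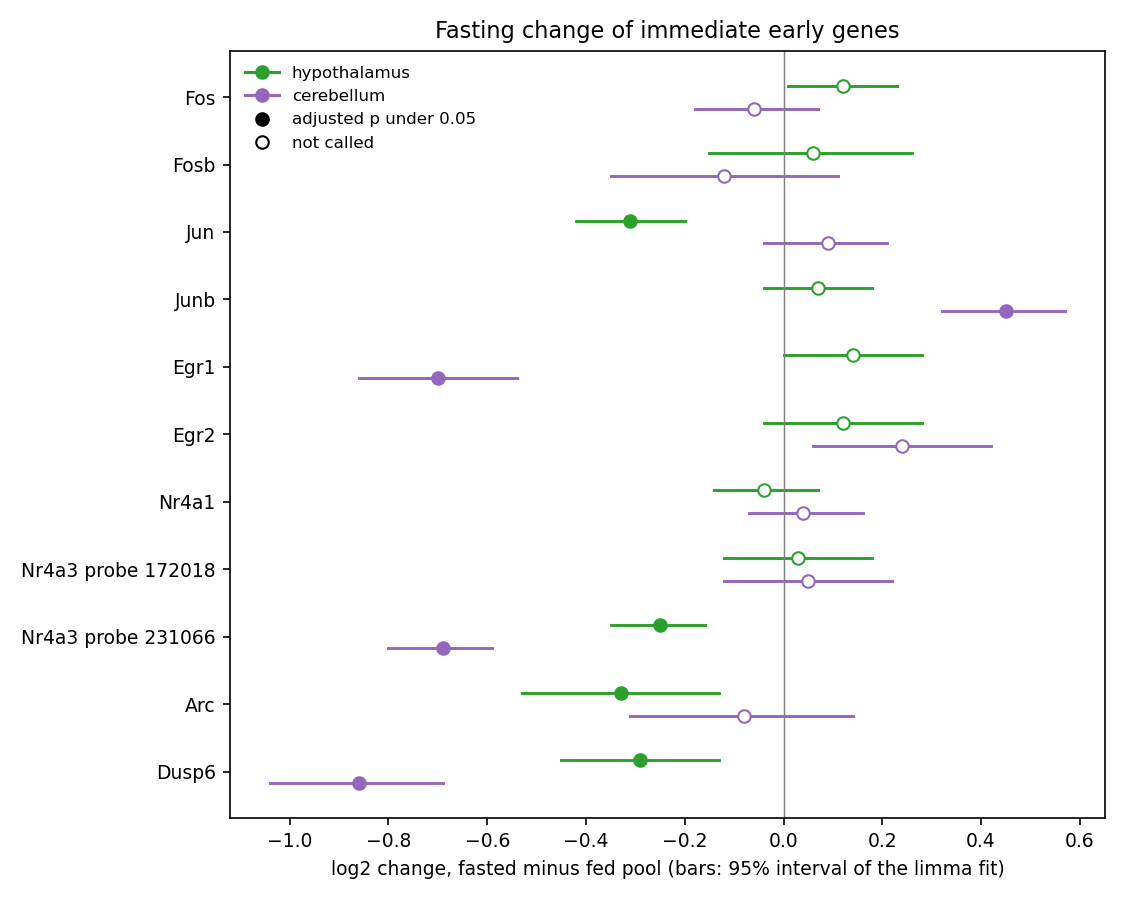
Change of each probe between the fasted and the fed pool (horizontal axis, log2), with hypothalamus in green, cerebellum in purple, bars for the 95% interval of the limma fit and filled points for an adjusted p under 0.05. Dusp6 and Nr4a3 probe 231066 are lower in both regions, Jun and Arc in hypothalamus, and Egr1 is lower and Junb higher in cerebellum.

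Arrays of the fed and fasted pools did not overlap for 7 of the 11 probes in each region, against 37.3% of all probes in hypothalamus and 50% in cerebellum. In the hypothalamus these were the 4 called probes with Fos, Egr2 and Junb. In the cerebellum they were the 4 called there with Arc, Egr2 and Jun.

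Whether the change with fasting differs between the regions was tested by the interaction term of the same fit. It differed for 5 of 11 probes, against 17.7% of all probes, with 3 more positive in hypothalamus and 2 more negative, against 8.66% and 9.01%. Egr1 had the largest difference among the 11, 0.84 ± 0.09 log2 more positive in hypothalamus (adjusted p = 0.000523, limma). Dusp6 differed by 0.57 ± 0.11 (adjusted p = 0.00664) and Nr4a3 probe 231066 by 0.44 ± 0.06 (adjusted p = 0.00181), both with the larger fall in cerebellum. Jun differed by -0.40 ± 0.07 (adjusted p = 0.00726) and Junb by -0.38 ± 0.08 (adjusted p = 0.00963), more negative in hypothalamus. The 5 calls were kept without any 1 array. For Arc the difference of -0.25 (-0.55 to 0.05) was not called, so its call in hypothalamus alone does not show that the regions differ. Fos differed by 0.18 (0.01 to 0.34; adjusted p = 0.141, limma), and without fasted replicate 2 of the cerebellum it was called at 0.26 (adjusted p = 0.0404).

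The way the arrays are put on a common scale matters for these changes, most of which are small. As ratios to the fed median, the fed arrays are narrow. Their interquartile range was 0.016 to 0.0986 log2, against 0.245 to 0.311 on the fasted arrays. Scaling to the 75th percentile then lowers fasted against fed arrays, and quantile normalization forces both onto 1 distribution. How far the calls gained or lost under these settings follow from this was not tested, so they do not decide whether a change holds. With 75th percentile scaling, which shifts the median of all probes by -0.11 log2 in hypothalamus and -0.13 in cerebellum, all called changes kept their direction. Then Nr4a1 was also called in hypothalamus (-0.14) and Fos in cerebellum (-0.19), both lower, and Fosb, Junb and Nr4a3 probe 172018 in hypothalamus and Jun, Nr4a1 and Nr4a3 probe 172018 in cerebellum changed sign without being called. With quantile normalization over all arrays or within regions, Nr4a3 probe 231066 in cerebellum was the only member call left in either region, at -0.46 and -0.44. Over all probes, 32 and 25 calls were left in hypothalamus and 441 and 466 in cerebellum. Under both quantile settings the called members kept their direction, with Dusp6 at -0.61 and -0.56 and Egr1 at -0.40 and -0.37 in cerebellum and Jun at -0.22 in hypothalamus.

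**Figure D3:**
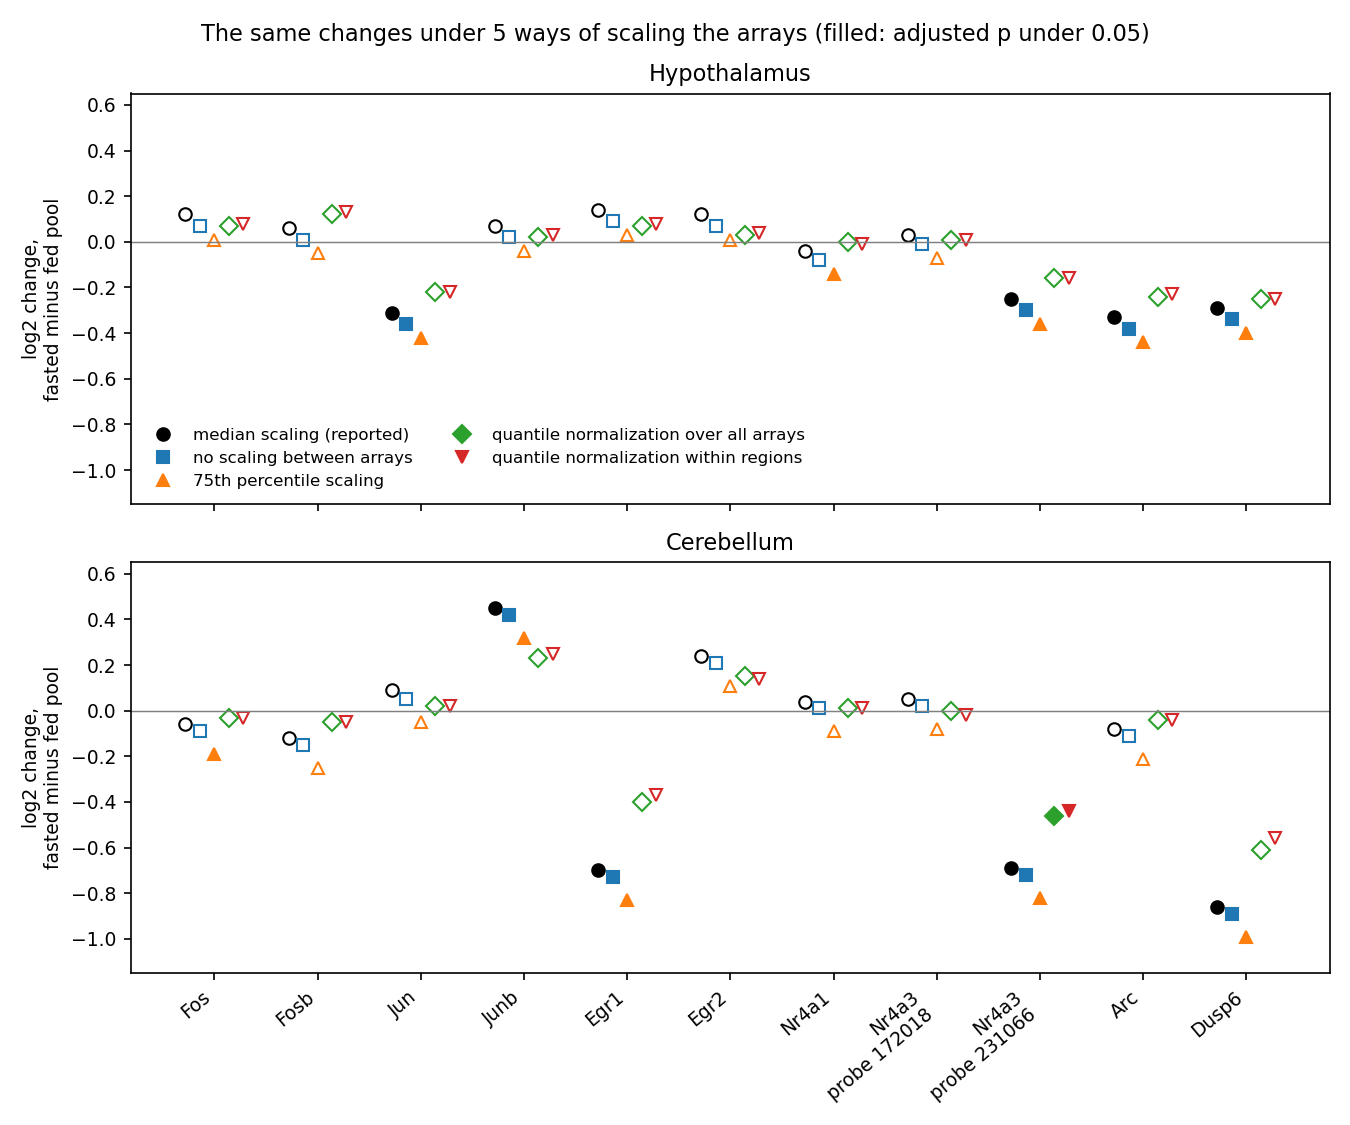
Change of each probe between fasted and fed pools (vertical axis, log2) under median scaling and 4 other ways of scaling the arrays, with filled marks for an adjusted p under 0.05 and hypothalamus above cerebellum. Dusp6, Egr1 and Nr4a3 probe 231066 in cerebellum lie below 0 under all 5, and quantile normalization gives smaller changes, such as -0.61 and -0.56 for Dusp6 against -0.86.

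Dusp6 is one of the genes that ERK induces and that restrain its pathway. The list followed here, called ERK feedback genes for short, holds other phosphatases of the Dusp family, the Sprouty (Spry) and Spred inhibitors, and the Ets factors Etv1, Etv4 and Etv5, which are outputs of the same pathway. Its phosphatases Dusp8, Dusp10 and Dusp16 act mainly on stress kinases and not on ERK, and gave 1 of the called probes in each region, Dusp8 in hypothalamus (-0.29 ± 0.07, other probe -0.16, not called) and Dusp16 in cerebellum. Like the members and the other lists, it was chosen with earlier results of these data known. Its share of called probes is therefore a description and no independent support for the fall of Dusp6. Of 19 genes on the list, 18 were measured, by 22 probes. In the hypothalamus 11 probes fell and 0 rose (12 and 2 at an unadjusted p under 0.05, limma), 50% called lower against 7.89% of all probes, with a median change of -0.18 log2. They were led by Dusp4, a nuclear ERK phosphatase, at -0.48 ± 0.05 and -0.41 ± 0.09 on its 2 probes, Spred1, an inhibitor of Ras signalling, at -0.42 ± 0.07, Etv5 at -0.36 ± 0.07 and Dusp14 at -0.29 ± 0.07. In the cerebellum 8 fell and 0 rose (9 and 0 at an unadjusted p under 0.05), 36.4% called lower against the 11.2% of all probes, with a median of -0.08. Here the named genes spanned a wider range, with Etv5 at -1.35 ± 0.08, Spred1 at -1.12 ± 0.08, Dusp16, a phosphatase of stress kinases, at -0.76 ± 0.08, Dusp4 at -0.56 ± 0.10 and -0.34 ± 0.06 and Etv4 at -0.47 ± 0.07.

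Etv5 shows the arrangement of Dusp6 on single arrays. Its ratios were 1.04, 1 and 0.904 in the fed and 0.735, 0.832 and 0.724 in the fasted hypothalamus, and 0.998, 1.03 and 1 against 0.406 and 0.387 in the cerebellum. Spred1 was at 1.02, 1 and 0.916 against 0.725, 0.769 and 0.7 in the hypothalamus and at 1, 1.06 and 0.892 against 0.467 and 0.438 in the cerebellum. For both genes no fasted array reached the fed range in either region. The fall was larger in cerebellum for Etv5 (difference 0.99 ± 0.10, adjusted p = 0.000389, limma) and Spred1 (0.70 ± 0.11, adjusted p = 0.00328). Of the 22 probes of the list, 7 differed between the regions (31.8% against 17.7% of all probes). Of these, 4 were more positive in hypothalamus and 3 more negative, namely Dusp14 (-0.41 ± 0.10) and both Dusp8 probes (-0.34 ± 0.10 and -0.31 ± 0.09). With either quantile normalization 1 of the 22 was called for the difference.

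Across regions, 7 of the 22 probes were called lower in both, against 1.61% of all probes. They belong to 6 genes, namely Etv5, Spred1, Spred3, Etv4, Dusp7 and, with both probes, Dusp4. As for Dusp6, the regions come from the same animals, so calls in both are not independent. A second Dusp7 probe was at 0.20 in hypothalamus and -0.07 in cerebellum, not called. Dusp1, a classical immediate early gene, stood at -0.03 (-0.13 to 0.07) and -0.01 (-0.12 to 0.10), and of the Sprouty genes Spry3 fell in hypothalamus (-0.28 ± 0.07, adjusted p = 0.0264, limma), while the probes of Spry1, Spry2 and Spry4 were not called in either region. In hypothalamus, leaving out fed replicate 1 or 2 brought the count to 3, fasted replicate 2 to 4 and fasted replicate 3 to 2. With array weights 12 fell and 2 rose, and without fed replicate 3 of the hypothalamus 7 fell and 1 rose, and without that of the cerebellum 11 fell and 1 rose. The count was 6 in a fit of that region alone and 0 with either quantile normalization (4 at an unadjusted p under 0.05, limma, in each). In cerebellum it was 3 and 2 with the quantile settings and 7 to 9 without any 1 array.

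**Figure D4:**
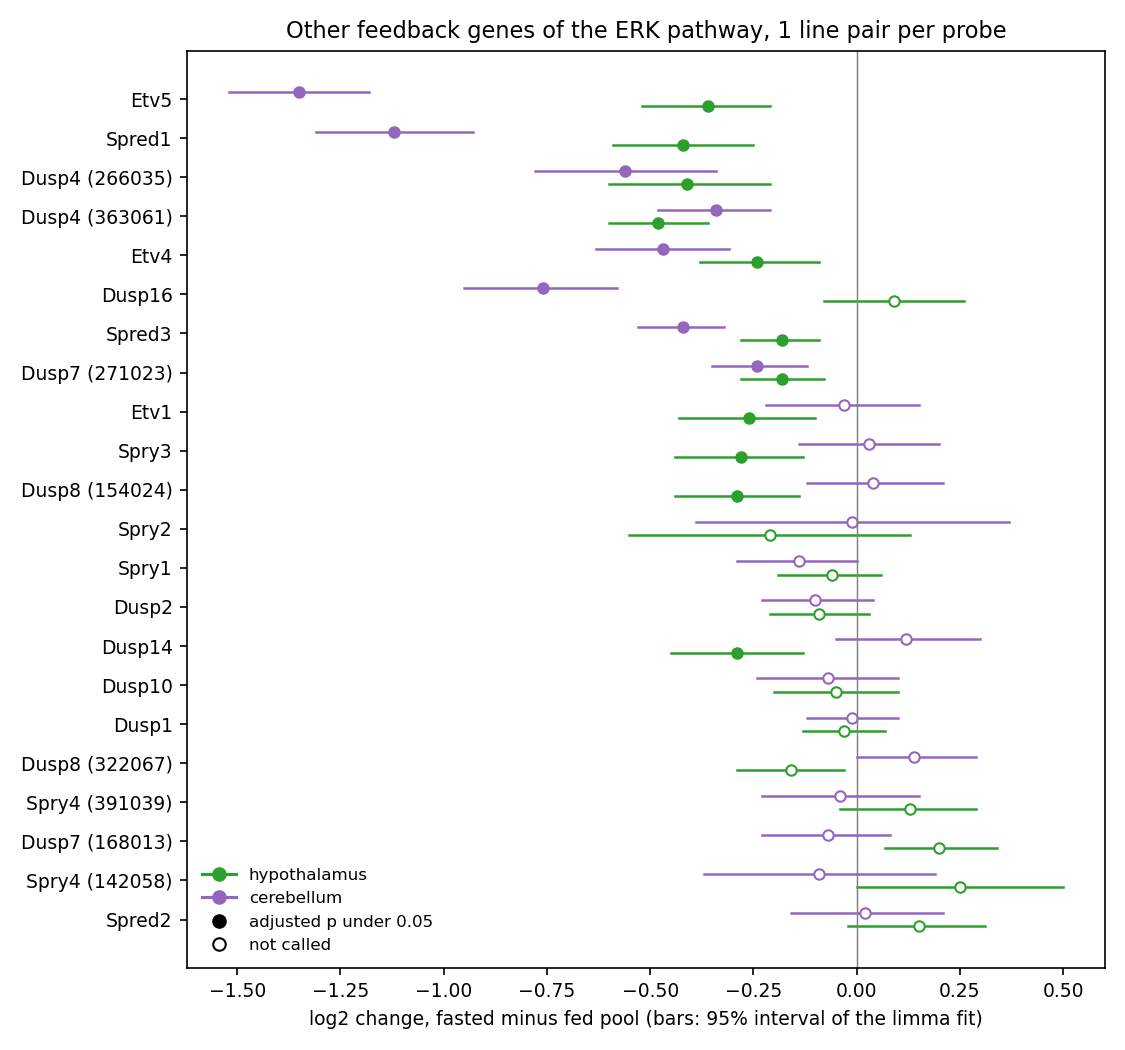
Change between fasted and fed pools (horizontal axis, log2) of the 22 probes of other ERK feedback genes, ordered by the mean of both regions, with bars for the 95% interval of the limma fit, filled points for an adjusted p under 0.05 and probe numbers where a gene has 2. Etv5 and Spred1 lie farthest to the left in cerebellum, at -1.35 and -1.12, and no filled point lies to the right of 0.

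Of 25 further rapidly induced regulators of transcription 23 were measured, by 23 probes, and in the hypothalamus 1 was called, Crem, which encodes repressors and activators of CREB targets (-0.42 ± 0.05, adjusted p = 0.00161, limma). That is 4.35% against 14.2% of all probes. In the cerebellum 2 rose, Klf6 (0.49 ± 0.10) and Cebpd (0.33 ± 0.07), and 3 fell, the clock repressor gene Bhlhe40 (-0.62 ± 0.05), Crem (-0.28 ± 0.05) and Klf10 (-0.26 ± 0.08), 21.7% against 20.9%. The list's median was -0.01 and 0.06.

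Among 28 rapidly induced genes of signalling and the synapse, 26 were measured, by 31 probes. In the hypothalamus 3 rose, Ccn2 (0.45 ± 0.04), Ptgs2, the inducible cyclooxygenase (0.37 ± 0.10), and Zfp36, an mRNA decay factor (0.17 ± 0.05), while Vgf, a peptide precursor, fell by 0.44 ± 0.05 and Nrn1, a neurite growth factor, by 0.40 ± 0.07. Vgf has 2 further probes without a call, at -0.27 and 0.07. In the cerebellum 3 rose, Gadd45b (0.44 ± 0.06), Gadd45g (0.31 ± 0.06) and Ccn1 (0.26 ± 0.07), and 7 fell, led by the synaptic scaffold gene Homer1 (-0.65 ± 0.16), Mcl1 (-0.55 ± 0.08), Trib1 (-0.33 ± 0.04), Amigo3 (-0.27 ± 0.08) and Sgk1 (-0.25 ± 0.07). Those counts are 16.1% of the list's probes in hypothalamus, near the 14.2% of all probes, and 32.3% in cerebellum, against 20.9%, with medians of 0.00 and -0.04.

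Upstream of the immediate early genes, 29 of 39 kinases and transcription factors were measured, by 42 probes. In the hypothalamus 8 probes fell and 2 rose (23.8% called against 14.2% of all probes, median -0.06). Those that fell include Camk4, a calcium-dependent kinase that phosphorylates CREB, at -0.92 ± 0.09 and -0.25 ± 0.06 (its other probes, at 0.25 and -0.03, were not called), its activator Camkk2 (-0.45 ± 0.05), Creb1 itself (-0.38 ± 0.05 and -0.25 ± 0.07) and Elk4, a partner of serum response factor (-0.31 ± 0.04) and Prkaca, a protein kinase A subunit gene (-0.28 ± 0.06). Mrtfb, which encodes a coactivator of serum response factor, rose on 1 probe (0.28 ± 0.07, others 0.04 and -2.05, not called), and so did Atf1, a relative of Creb1 (0.19 ± 0.05, other 0.10, not called). In the cerebellum 13 fell and 5 rose (42.9% called against 20.9% of all probes, median -0.10). The ERK-activated kinase Rps6ka3 fell by 0.92 ± 0.11, the protein kinase A subunit genes Prkacb by 0.99 ± 0.08 and Prkaca by 0.60 ± 0.06, and Rps6ka5 by 0.73 ± 0.09, while Mef2a (0.70 ± 0.06), Elk1 (0.55 ± 0.05), Camk2g (0.45 ± 0.07) and Camkk2 (0.27 ± 0.06) rose. Another Mef2a probe, at -0.14, was not called. Elk3, an Ets factor gene, fell by 0.56 ± 0.06, and Srf, which encodes serum response factor, rose by 0.15 ± 0.05 (adjusted p = 0.0486, limma).

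Of 13 binding partners and corepressors 11 were measured, by 13 probes. In the hypothalamus 1 was called, Jdp2, an AP-1 repressor (-0.20 ± 0.04), or 7.69% against 14.2% of all probes. In the cerebellum Atf2, which pairs with Jun (-0.65 ± 0.06), Mafg (-0.41 ± 0.08) and Rxrg (-0.27 ± 0.07) fell and Batf3 (0.29 ± 0.07) and Rxrb (0.27 ± 0.06), a partner of Nr4a1, rose, 38.5% called against 20.9%.

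Markers of cell types and neighbouring tissue were called in the same comparisons, to be read against the 7.89% of all probes called lower and 6.34% higher in hypothalamus. In the hypothalamus 12 of 17 probes of thalamus and habenula markers fell and 0 rose (12 and 1 at an unadjusted p under 0.05, limma), with Pou4f1 at -2.01 ± 0.39, Prkcd at -0.78 ± 0.06 (its other probe -0.12, not called) and Synpo2 at -0.74 ± 0.06 (others -0.12 and 0.00, not called). The list's median on single arrays lay between -0.01 and 0.03 log2 when fed and between -0.39 and -0.33 when fasted. Of forebrain neuron markers 5 of 20 probes fell and 0 rose, with Nrgn at -0.60 ± 0.07, and array medians from 0.00 to 0.01 against -0.11 to -0.09. Of pan-neuronal markers 4 of 17 fell and 0 rose, with medians from 0.00 to 0.03 against -0.14 to -0.13. Oligodendrocyte (4 of 13), astrocyte (5 of 11) and microglia markers (6 of 10) included falls and 0 rises, and 5 of 15 vessel and meninges markers rose and 0 fell. At an unadjusted p under 0.05, limma gave 2, 1, 0, 1 and 1 rises for the forebrain, pan-neuronal, oligodendrocyte, astrocyte and microglia lists and 1 fall for vessels and meninges. Of granule and Purkinje cell markers, which mark the cerebellum, 6 of 17 rose and 1 fell in the hypothalamus, with Cbln3 at 1.88 ± 0.08 and 0.76 ± 0.05. Of 6 choroid plexus markers 2 fell, Ttr (-0.81 ± 0.06) and Otx2 (-0.36 ± 0.05), and Kcnj13 rose (0.34 ± 0.08). For hypothalamic neuron markers 0 of 11 probes were called by limma (1 at an unadjusted p under 0.05). The falls of Jun, Arc, Dusp6 and the ERK feedback genes in the hypothalamus thus stand beside falls of thalamic, neuronal and glial markers, and the part of these in the result was not tested.

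In the cerebellum, where 11.2% of all probes were called lower and 9.66% higher, the pan-neuronal markers went both ways, with 5 of 17 probes higher and 2 lower and array medians from 0.08 to 0.10 when fasted against -0.07 to 0.01 when fed. Granule and Purkinje cell markers fell on 2 of 17 probes, 11.8% and so near the share of all probes, namely Car8 at -0.44 and 1 probe of Cbln3 at -0.81 (the other -0.11, not called), and 0 rose, also at an unadjusted p under 0.05 (limma). Oligodendrocyte markers fell on 5 of 13, with Ugt8a at -0.82 ± 0.08, astrocyte markers on 3 of 11 with 2 higher, led by Gja1 (-0.95 ± 0.06) and Slc1a3 (-0.62 ± 0.08), and vessel and meninges markers on 5 of 15 with 2 higher, led by Ogn (-1.38 ± 0.06). Choroid plexus markers fell on 4 of 6, led by Kl (-0.65 ± 0.07), with array medians from -0.38 to -0.29 when fasted against -0.07 to 0.03 when fed. Thalamus and habenula markers fell on 5 of 17 (29.4%) and 0 rose (3 at an unadjusted p under 0.05, limma), and of 20 forebrain neuron probes 4 rose and 1 fell. Of 10 microglia probes 1 fell, and of 11 hypothalamic neuron probes 1 rose, Pomc at 1.32. The array medians were -0.05 on both fasted arrays for granule and Purkinje cells, -0.02 and 0.00 for oligodendrocytes, -0.17 and 0.03 for astrocytes and -0.30 and -0.15 for vessels and meninges, against -0.01 to 0.01 on the fed arrays of these lists. The part of these markers in the falls of Egr1, Dusp6, Etv5 and Spred1 was not tested.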

How the data were processed

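The values are ratios that the authors deposited, 1 per probe and array. In each region the median of the 3 fed arrays was 1 for all 34999 probes (tolerance 1e-06). No software, background step or array scaling is named (not given in the sources used here). A linear scale was inferred from the values. Each array was divided by its median, floored at 0.1 and log2-transformed. The 4 pools were fitted with limma 3.58.1 (R 4.3.3) over 11 arrays (7 residual and 1.82 prior degrees of freedom, no variance trend), with two-sided moderated tests and Benjamini-Hochberg adjustment. Steps were tested on simulated data. Arrays of 1 pool differed by a median SD of 0.0637 to 0.0866 log2 over probes, and the number of arrays limits the precision. Symbols come from the platform annotation, and the 11 member probes matched RefSeq by Entrez identifier. All member probes are described, with up to 5 called genes per pathway list and direction and up to 3 per marker list. Members and lists were chosen with earlier results of these data known. Promoter motifs were chosen for these genes and searched in RefSeq windows. Alternatives were other scalings, floor, prior, weights, filter, samples, a block and each array left out.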

Additional observations from a re-analysis of the deposited data

Results flagged for a closer look

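The change with fasting differed between the regions for 5 member probes by the interaction test of limma, given as hypothalamus minus cerebellum. Egr1 differed by 0.84 log2, at 0.14 in hypothalamus, not called, and -0.70 in cerebellum. Dusp6 differed by 0.57 and Nr4a3 probe 231066 by 0.44, both lower in both regions. Jun differed by -0.40 and Junb by -0.38, each called in a single region. Both quantile normalizations left none of the 5 called, and both force the narrow fed and the wider fasted arrays onto 1 distribution.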

How the results depend on the processing

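Each member change was recomputed under 22 alternatives in a region and 20 for the difference, and no called change turned its direction. Among the 11 member probes there were 4 calls in hypothalamus, 4 in cerebellum and 5 for the interaction. With quantile normalization over all arrays the counts were 0, 1 and 0, and within regions also 0, 1 and 0 (1, 4 and 3 at an unadjusted p under 0.05, limma, for each). Both quantile settings force the narrow fed and the wider fasted arrays onto 1 distribution, and the called member changes were smaller under both. Dusp6 in hypothalamus was at -0.25 under both, against -0.29, with adjusted p = 0.649 and 0.679 (limma). How far the lost calls follow from the smaller changes was not tested. In the fit of only the arrays of the region 2 were called in hypothalamus and 4 in cerebellum. Leaving out 1 array gave 2 to 4, 4 to 5 and 5 to 6, where a pool left with 1 array is assumed to vary like the others. The labels do not say whether replicate numbers pair the arrays. In hypothalamus the correlation of deviations was 0.07 to 0.1 for fed and fasted arrays of the same number. It was -0.09 to 0.01 for those of unlike number. In cerebellum it was 0.04 and -0.02 for the same number and -0.06 to 0.06 for unlike numbers. These values do not settle whether arrays of the same number are paired. The replicate block kept 4, 4 and 5 in the fit of all arrays, but in the arrays of the region alone 0 were called in each (5 and 4 at an unadjusted p under 0.05), where 48 and 0 of all probes were called and 0 of the ERK feedback probes in each (15 and 8 at an unadjusted p under 0.05). Over all probes in hypothalamus, 4980 were called (44.6% higher), 9254 with 75th percentile scaling (7.72%), 5695 without scaling (24.1%) and 8971 with array weights, and in cerebellum 7302 (46.3% higher), 11088 with 75th percentile scaling (15.6%) and 7374 without scaling (37.2%). The 2 quantile settings, over all arrays first, left 32 (59.4% higher) and 25 (40%) in hypothalamus, 441 (12.7%) and 466 (25.1%) in cerebellum, and 153 (79.1%) and 128 (64.8%) for the difference, of 6184 (49%). Leaving out fed replicate 1 or 2 of the hypothalamus brought its calls to 2442 or 2165, leaving out its fasted replicate 2 or 3 to 2329 or 1940, and leaving out fasted replicate 1 of the cerebellum brought those of that region to 4540. Counts of the other lists depended on these choices too. In hypothalamus the pan-neuronal count of 4 ranged from 0 to 10 and moved by over 1.5 times under 12 of 22 alternatives, that of signalling and synapse genes (5) from 0 to 14 under 12, that of vessel and meninges markers (5) from 0 to 7 under 11, and that of thalamus and habenula markers (12) from 0 to 13 under 3. The floor, robust prior, array weights and the filter on extreme ratios changed no member call. Signal over background is not kept in these ratios.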
